A study of Mus musculus with 10 samples.

Results

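In the livers of 5 MI-883-treated mice and 5 vehicle-treated control mice, RNA was examined for 10 enzymes that open epoxides, reduce carbonyl groups, or make and break down prostanoids and leukotrienes. They were taken by name, without a threshold on any measured value, though earlier results of these data were known when they were chosen. They are the epoxide hydrolases *Ephx1* and *Ephx2*, the carbonyl reductases *Cbr1* and *Cbr3*, the prostaglandin-degrading *Hpgd* and *Ptgr1*, the prostanoid-making *Ptgs1* and *Ptgds*, and the leukotriene-making *Alox5ap* and *Ltc4s*. All 10 were among the 16647 genes listed in the count table, and all 10 had the 60 counts over the 10 livers that a gene needed to be tested, as did 13219 genes in all. The animals of both groups were male humanized PXR-CAR-CYP3A4/3A7 mice (Taconic), which carry the human nuclear receptors PXR and CAR and the human CYP3A4 and CYP3A7 genes in an otherwise mouse genome, so every enzyme described here is the mouse gene. They were 10 to 15 weeks old when a high-fat diet (HFD) began. Both groups were kept on HFD for 8 weeks before dosing and remained on it during dosing. MI-883, a ligand that activates CAR and inhibits PXR, was then given by *p.o*. gavage at 5 mg/kg 3 times per week for 4 weeks. Control animals received only the vehicle of DMSO, PEG300 and corn oil on the same schedule. Each library is the RNA of a separate animal, and no lean or undosed group was part of the comparison. Whole liver was sequenced, so fewer cells of a type and less RNA per cell cannot be told apart.

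CAR and PXR are sensors of foreign compounds in hepatocytes, and the genes they switch on include enzymes that oxidise, hydrolyse, reduce and conjugate drugs. Microsomal epoxide hydrolase, encoded by *Ephx1*, adds water to reactive epoxides left by cytochrome P450 enzymes, whereas soluble epoxide hydrolase, encoded by *Ephx2*, turns fatty acid epoxides into diols. Prostanoids arise when phospholipases free arachidonic acid, cyclooxygenases convert it to prostaglandin H2 and terminal synthases shape the final product. Leukotrienes branch off through 5-lipoxygenase, largely in leukocytes, and *Hpgd*, *Ptgr1* and the carbonyl reductases take part in the breakdown of the finished lipids.

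Reads counted on genes ranged from 24014461 to 36221514 per control liver and from 23513665 to 28349963 per MI-883-treated liver. Levels are given as CPM, which brings the counts of each liver to one library size by TMM scaling, with the S.D. over 5 livers, and a count of 3, taken as the floor, was worth 0.0838 to 0.133 CPM. Log2 fold changes are MI-883 over control, and adjusted P values come from the quasi-likelihood test of edgeR over all tested genes. The liver identity of the samples was clear from 8 of 8 hepatocyte markers, whose summed level was 70636 to 82090 CPM in control and 61974 to 74073 CPM in MI-883-treated livers.

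Among the 10 enzymes, *Ephx1* rose by about 1.5-fold after MI-883, and none of the other 9 passed the test. Outside the 10, a single gene of the wider pathway, the inducible prostaglandin E synthase *Ptges*, rose to 3.83 times its control level. Over all tested genes, 136 passed an adjusted P of 0.05, which is 1.03%, and 101 of them, 0.764%, were higher. Of the 10 enzymes, 6 had a positive and 4 a negative log2 fold change, beside 6744 and 6475 of the 13219 tested genes. The median was 0.22 for the 10 enzymes and 0.0045 over all tested genes. An unadjusted P under 0.05 in the edgeR test was reached by *Ephx1*, *Ptgr1*, *Cbr1* and *Cbr3*, all on the side of higher levels. It was reached by 2059 of the 13219 tested genes, whose split by direction was not counted.

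**Figure D1:**
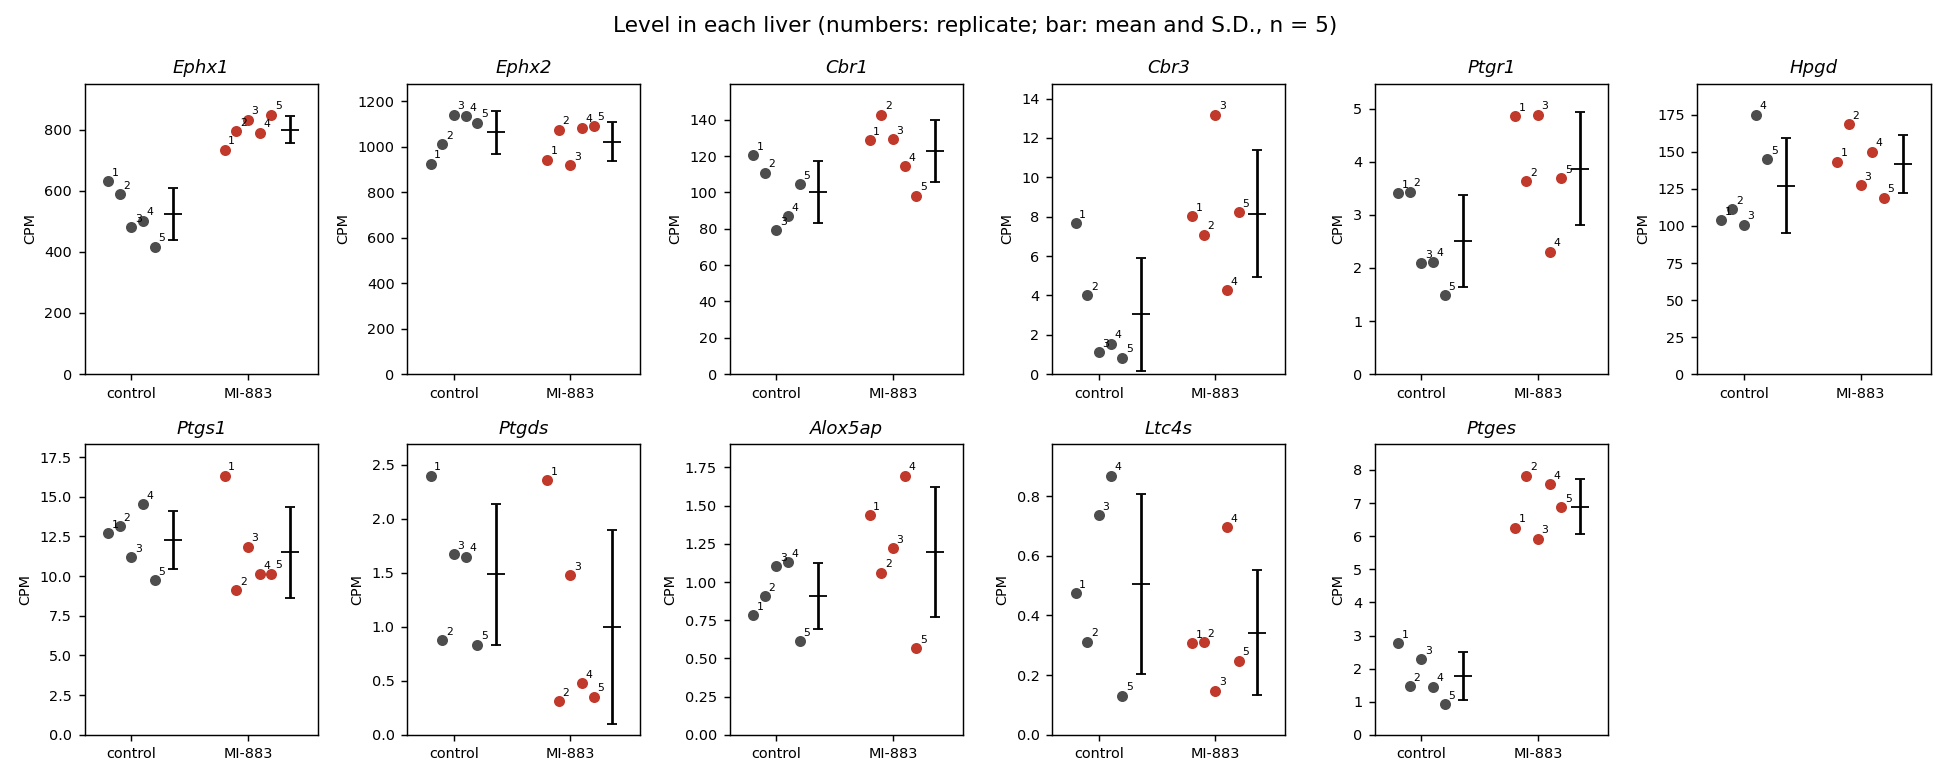
Level of the 10 enzymes and of *Ptges* in each liver, in CPM on linear axes that start at 0, for 5 control (grey) and 5 MI-883-treated (red) livers. Points are single livers with their replicate number and the bar is the mean and S.D.; the groups are apart for *Ephx1* (416 to 631 against 734 to 849 CPM) and *Ptges*, and overlap for the other 9.

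*Ephx1* (Entrez 13849, GRCm38.p6 chr1:180989556-181017569, minus strand) measured 631, 589, 481, 502 and 416 CPM in control livers 1 to 5. In MI-883-treated livers 1 to 5 it measured 734, 795, 833, 789 and 849 CPM. Every treated liver lay above the highest control liver, and the treated livers were also closer to each other, with a coefficient of variation of 5.56% against 16.4% in control. The mean was 524 ± 86.0 CPM in control and 800 ± 44.5 CPM after MI-883 (S.D., n = 5). This is a log2 fold change of 0.61 (SE 0.108, 95% interval 0.38 to 0.84, edgeR adjusted P = 0.0182). An exact permutation test of mean log2 CPM, two-sided here and throughout, gave P = 0.00794, the smallest that 5 livers against 5 allow. Groups without overlap were found for 3.98% of all tested genes and for 1 of the 10 enzymes. The size of the change was 0.54 to 0.69 on the log2 scale when each liver was left out in turn, but the adjusted P passed the threshold in 7 of these 10 fits. It became 0.0513 without control 3, 0.0527 without control 4 and 0.0571 without MI-883 5.

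The 250 bases upstream of *Ephx1* are shown because it is the enzyme of the 10 that passed the test. The window is chr1:181017570-181017819 on the minus strand of GRCm38.p6 (RefSeq), written 5′ to 3′, and capitals would mark a motif match.

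Ephx1: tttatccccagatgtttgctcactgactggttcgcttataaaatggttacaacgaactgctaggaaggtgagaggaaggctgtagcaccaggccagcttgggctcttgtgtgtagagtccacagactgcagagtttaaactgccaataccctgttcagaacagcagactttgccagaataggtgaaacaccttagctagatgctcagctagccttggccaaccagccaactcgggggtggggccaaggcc

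Both strands were searched for 3 motifs. These were TGACNNNGC, the core of the antioxidant response element, then a direct repeat of AGNTCA spaced by 4 bases, the arrangement known as DR4, to which CAR binds, and GCGTG, the dioxin response core. None of these letters occur in the *Ephx1* window. Among 32851 RefSeq windows of the same length, the antioxidant core was found in 10.2%, the DR4 arrangement in 0.103% and the dioxin core in 28.2%. Windows were at hand for 8 of the 10 enzymes, and none of the 8 held the antioxidant core or the DR4 arrangement. A match or its lack describes the letters of this stretch only.

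*Ephx2* (Entrez 13850, chr14:66084372-66124522, minus strand) did not pass the test. It measured 925, 1011, 1141, 1135 and 1107 CPM in control livers 1 to 5 and 943, 1074, 918, 1084 and 1094 CPM in MI-883-treated livers 1 to 5. The groups overlapped almost wholly, at 1064 ± 93.3 and 1023 ± 84.8 CPM. The log2 difference was -0.06 (SE 0.0893, 95% interval -0.25 to 0.14, edgeR adjusted P = 0.789; exact permutation P = 0.5).

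Whether the epoxide hydrolases differed from each other in response was asked of their ratio within each liver, which does not depend on library scaling. The log2 ratio of *Ephx1* to *Ephx2* was -0.55, -0.78, -1.25, -1.18 and -1.41 in control livers 1 to 5. In treated livers 1 to 5 it was -0.36, -0.43, -0.14, -0.46 and -0.37, all above the control livers. The mean went from -1.03 ± 0.355 to -0.35 ± 0.125, a difference of 0.68 (exact two-sided permutation P = 0.00794, 0.0397 after Benjamini-Hochberg adjustment over 5 ratios). With any 1 MI-883-treated liver left out, the exact permutation P was 0.0159 and the adjusted value 0.0794. Without any 1 control liver, the adjusted value stayed under 0.05. The difference was 0.63 to 0.71 in the former fits and 0.59 to 0.80 in the latter, and the groups stayed apart in each.

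*Ephx1* and *Ephx2* also stood apart from the other enzymes in level. Compared per length, as counts per kilobase of merged exons rescaled in each liver to the same total (length-scaled CPM), control livers held 1035 ± 42.2 of *Ephx2*, 656 ± 141 of *Ephx1*, 182 ± 38.0 of *Hpgd* and 95.9 ± 20.9 of *Cbr1*. None of these 4 overlapped the next in that order. *Ptgs1* followed at 7.66 ± 1.22, *Cbr3* at 6.09 ± 6.10, *Ptgr1* at 2.68 ± 1.07, *Ptgds* at 2.20 ± 1.05, *Alox5ap* at 1.54 ± 0.335 and *Ltc4s* at 1.19 ± 0.673 length-scaled CPM, and each of these overlapped its neighbour. After MI-883, *Ephx1* at 1049 ± 127 overlapped *Ephx2* at 1047 ± 76.0 on this scale. *Cbr3*, at 17.0 ± 8.09, then stood above *Ptgs1* at 7.60 ± 2.10, with overlapping ranges.

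Of the epoxide hydrolases beside these, *Ephx3* had 0 to 2 counts and *Ephx4* 0 to 8 counts per liver and neither was tested. *Lta4h*, which opens the epoxide of leukotriene A4, measured 36.9 ± 1.81 CPM in control and 34.8 ± 1.90 CPM after MI-883 (log2 difference -0.08, edgeR adjusted P = 0.558).

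The genes whose course over the 10 livers was nearest to that of *Ephx1* were *Gstm4*, *Entpd7* and *Ugdh*. The measure was the root mean square difference of log2 CPM, each gene centred on its own mean, and it was 0.0809, 0.109 and 0.120 for the 3 genes. *Gstm4*, a mu class glutathione transferase, went from 76.4 to 115 CPM (log2 fold change 0.59, SE 0.109, edgeR adjusted P = 0.0217). *Ugdh*, which makes UDP-glucuronic acid, measured 219 and 313 CPM (0.52, adjusted P = 0.112), and *Entpd7*, a nucleotide phosphatase, 2.21 and 3.27 CPM (0.55, adjusted P = 0.100).

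The carbonyl reductases *Cbr1* and *Cbr3* reduce quinones and carbonyl groups, *Cbr1* also those of prostaglandins, and both lie on the plus strand of chromosome 16. Neither passed the test over all genes. The 250 bases upstream of both are shown since the paired genes spread so differently among the livers. They are chr16:93607587-93607836 for *Cbr1* and chr16:93682969-93683218 for *Cbr3*, 5′ to 3′ on the plus strand of GRCm38.p6 (RefSeq), with matches to GCGTG or its complement in capitals.

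Cbr1: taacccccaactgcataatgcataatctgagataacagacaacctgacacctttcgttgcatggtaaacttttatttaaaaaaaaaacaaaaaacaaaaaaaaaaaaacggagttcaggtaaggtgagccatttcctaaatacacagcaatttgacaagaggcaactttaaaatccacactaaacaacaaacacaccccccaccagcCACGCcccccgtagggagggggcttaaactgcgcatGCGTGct
Cbr3: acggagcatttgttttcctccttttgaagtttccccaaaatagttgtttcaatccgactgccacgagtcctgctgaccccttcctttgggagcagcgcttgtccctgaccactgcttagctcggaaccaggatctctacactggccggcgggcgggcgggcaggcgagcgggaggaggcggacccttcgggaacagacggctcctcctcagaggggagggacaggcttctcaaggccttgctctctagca

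The *Cbr1* window held 2 dioxin cores, at positions -43 (antisense) and -7 from the start, and the *Cbr3* window held none of the 3 motifs.

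*Cbr3* (Entrez 109857, chr16:93683219-93690991) measured 7.68, 4.0, 1.10, 1.53 and 0.833 CPM in control livers 1 to 5, from 19 to 275 counts. In MI-883-treated livers 1 to 5 it measured 8.03, 7.08, 13.2, 4.26 and 8.23 CPM, from 98 to 356 counts. Control 1 and control 2 were high and the other 3 control livers low, while every treated liver lay above control 2, and 3 of the 5 lay above control 1. The coefficient of variation was 95.3% among control livers and 39.5% among treated livers, the former being the largest of the 10 enzymes. The mean was 3.03 ± 2.89 and 8.16 ± 3.22 CPM, with a log2 fold change of 1.39 (SE 0.498, 95% interval 0.32 to 2.47, edgeR adjusted P = 0.204). The exact permutation test of mean log2 CPM gave P = 0.0317.

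The *Cbr3* result depended on control 1. Without it, the log2 fold change was 2.09 with an edgeR adjusted P of 0.0326, while over all 10 fits that left out a liver it lay between 1.15 and 2.09 with adjusted P up to 0.405. The summed level of 6 bile duct markers (6 of 6 tested, none called) moved with *Cbr3* among the control livers, at 119, 74.7, 28.0, 35.2 and 25.3 CPM in livers 1 to 5. In treated livers 1 to 5 the sum was 152, 53.7, 192, 35.5 and 53.2 CPM, so that MI-883 3 was highest and MI-883 4 lowest for both. Without the 4 livers of highest sum (control 1 and 2, MI-883 1 and 3), the log2 fold change of *Cbr3* was 2.46 (adjusted P = 0.00185). With the log2 sum as a covariate it was 1.07 (adjusted P = 0.0757). Both fits were added after the data were seen. The former drops control 1 and 2, the control livers highest for *Cbr3*, so its larger value is no separate support for a rise. *Ephx1* passed the edgeR test in both fits, with log2 fold changes of 0.80 (adjusted P = 0.00443) and 0.55 (adjusted P = 0.0108). Its control livers had the same order as the marker sum. The treated livers did not, with MI-883 5 highest and MI-883 1 lowest for *Ephx1*. The cause of the shared order was not tested.

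*Cbr1* (Entrez 12408, chr16:93607837-93610349) measured 120, 111, 79.3, 87.0 and 104 CPM in control livers 1 to 5 and 129, 143, 129, 114 and 98.2 CPM in treated livers 1 to 5. Of the treated livers, 3 lay above the highest control liver, and MI-883 4 and 5 lay among the control livers. The log2 difference was 0.29 (SE 0.123, 95% interval 0.02 to 0.56, edgeR adjusted P = 0.282; exact permutation P = 0.0794), from 100 ± 16.9 to 123 ± 17.0 CPM. Within livers, the log2 ratio of *Cbr3* to *Cbr1* was -5.53 ± 1.17 in control and -3.99 ± 0.578 after MI-883, a difference of 1.54 that did not pass the adjustment over 5 ratios (exact permutation P = 0.0397, adjusted 0.0992). Without control 1 it was 1.93, with an adjusted P of 0.0198.

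Of the 5 other carbonyl reductases, 4 were tested and none passed. The most abundant were *Akr1a1*, an aldehyde reductase, at 597 ± 31.4 and 603 ± 60.1 CPM (log2 difference 0.02, edgeR adjusted P = 0.947), and *Dhrs4*, at 222 ± 7.48 and 220 ± 22.5 CPM (-0.02, adjusted P = 0.928). *Cbr2*, with 0 to 3 counts per liver, was at the floor.

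**Figure D2:**
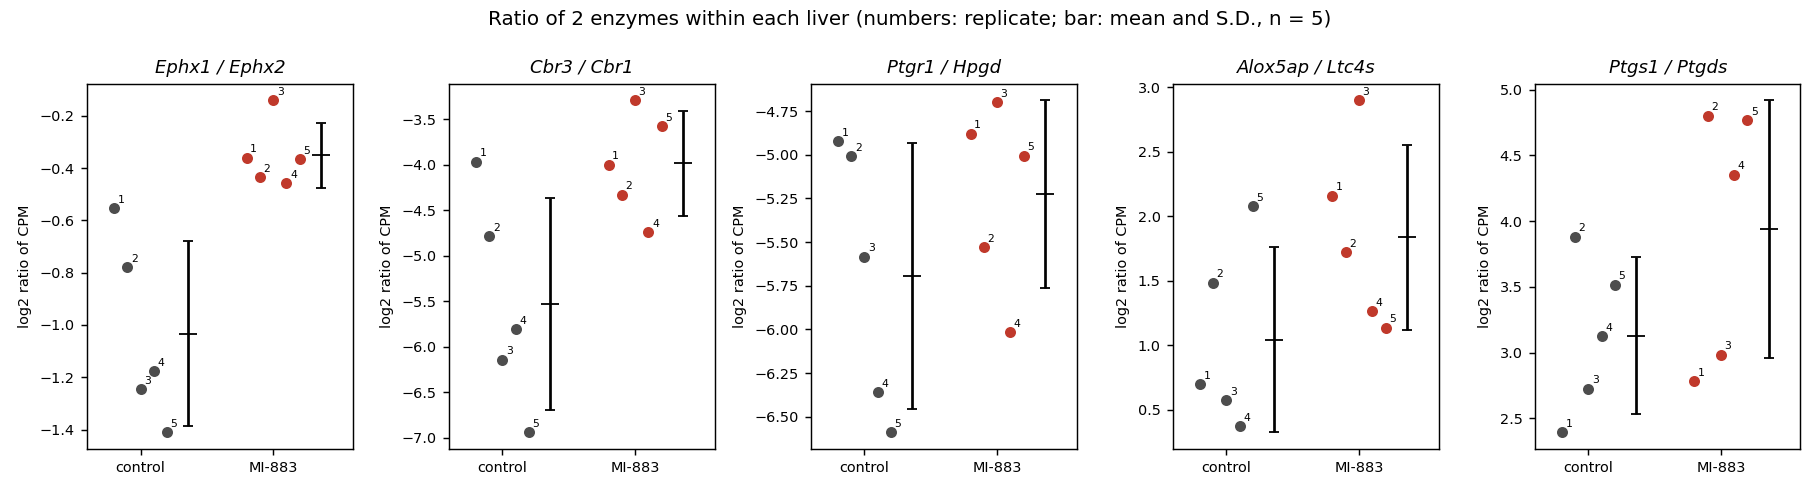
Log2 ratio of the CPM of 2 enzymes within each liver, for 5 control (grey) and 5 MI-883-treated (red) livers, with the mean and S.D. beside the points; the vertical axes differ and do not start at 0. The groups are apart for *Ephx1* to *Ephx2* and overlap for the other 4 ratios.

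*Hpgd* (Entrez 15446, chr8:56294552-56321046, plus strand) encodes hydroxyprostaglandin dehydrogenase, the enzyme that begins prostaglandin breakdown. It measured 104, 111, 101, 175 and 145 CPM in control livers 1 to 5 and 143, 169, 127, 150 and 119 CPM in treated livers 1 to 5. The range of the treated livers fell within that of the control livers. The means were 127 ± 32.1 and 142 ± 19.5 CPM, with a log2 difference of 0.16 (SE 0.151, 95% interval -0.17 to 0.48, edgeR adjusted P = 0.646; exact permutation P = 0.341).

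*Ptgr1* (Entrez 67103, chr4:58965590-58987131, minus strand) encodes a reductase that completes this breakdown and also inactivates leukotriene B4. It measured 3.41, 3.44, 2.08, 2.11 and 1.49 CPM in control livers 1 to 5, and 4.85, 3.63, 4.89, 2.31 and 3.69 CPM in treated livers 1 to 5, from 34 to 142 counts. All treated livers except MI-883 4 lay above the highest control liver. The log2 difference was 0.62 (SE 0.253, 95% interval 0.07 to 1.16, edgeR adjusted P = 0.266; exact permutation P = 0.0556), from 2.51 ± 0.872 to 3.87 ± 1.07 CPM. The standard error was more than double that of *Ephx1*. As for *Cbr3*, control 1 and 2 were the highest control livers, MI-883 3 the highest and MI-883 4 the lowest treated liver. *Ptgr1* had a log2 difference of 0.33 (edgeR adjusted P = 0.352) with the log2 bile duct marker sum as a covariate and of 0.75 (adjusted P = 0.215) without the 4 livers of highest sum. The log2 ratio of *Ptgr1* to *Hpgd* differed by 0.47 between the groups (exact permutation P = 0.278, also after adjustment).

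The other genes of prostanoid inactivation and uptake, 3 of 3 tested, did not pass. The reductases *Ptgr2* and *Ptgr3* measured 104 ± 6.80 and 101 ± 1.94 CPM in control livers, far above *Ptgr1* in CPM, and 97.2 ± 7.34 and 104 ± 7.94 CPM after MI-883. Their log2 differences were -0.09 (edgeR adjusted P = 0.558) and 0.05 (adjusted P = 0.763).

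*Ptgs1* (Entrez 19224, chr2:36216742-36258593, plus strand) encodes the constitutive cyclooxygenase. It measured 12.7, 13.2, 11.2, 14.5 and 9.74 CPM in control livers 1 to 5 and 16.3, 9.12, 11.8, 10.1 and 10.1 CPM in treated livers 1 to 5. Treated livers held both the highest and the lowest value. The means were 12.3 ± 1.85 and 11.5 ± 2.87 CPM, with a log2 difference of -0.09 (SE 0.155, 95% interval -0.43 to 0.24, edgeR adjusted P = 0.807; exact permutation P = 0.548). *Ptgs2*, the inducible cyclooxygenase, had only 1 to 4 counts per liver and was not tested.

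*Ptgds* (Entrez 19215, chr2:25466709-25470110, minus strand), the lipocalin-type prostaglandin D synthase, measured 2.40, 0.875, 1.68, 1.65 and 0.833 CPM in control livers 1 to 5. In treated livers 1 to 5 it measured 2.36, 0.310, 1.48, 0.479 and 0.355 CPM, from counts as low as 7. MI-883 2, 4 and 5 lay below all control livers and MI-883 1 and 3 among them. The log2 difference was -0.56 with a wide 95% interval of -1.67 to 0.55 (SE 0.513, edgeR adjusted P = 0.624; exact permutation P = 0.175), from 1.49 ± 0.652 to 0.996 ± 0.900 CPM. It was -0.31 without control 1 and -1.17 without MI-883 1, the ends of the range when each liver was left out, and the adjusted P passed in 0 of these 10 fits. Without the 4 livers of highest bile duct marker sum it was -1.87 (edgeR adjusted P = 0.0507), and with the log2 sum as a covariate -1.24 (adjusted P = 0.217). Those 4 include MI-883 1 and 3, the treated livers highest for *Ptgds*, and control 1, its highest control liver. They also include control 2, which at 0.875 CPM lay below control 1, 3 and 4. The log2 ratio of *Ptgs1* to *Ptgds* differed by 0.81 (exact permutation P = 0.151, adjusted 0.188).

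*Ptges*, the inducible microsomal prostaglandin E synthase (Entrez 64292), was the gene of the prostanoid lists that rose. It measured 2.77, 1.47, 2.29, 1.45 and 0.921 CPM in control livers 1 to 5 and 6.26, 7.83, 5.92, 7.57 and 6.88 CPM in MI-883-treated livers 1 to 5, from 21 to 194 counts. The lowest treated liver had over double the level of the highest control liver. The mean was 1.78 ± 0.737 and 6.89 ± 0.820 CPM, a log2 fold change of 1.94 (SE 0.232, 95% interval 1.44 to 2.44, edgeR adjusted P = 0.00091; exact permutation P = 0.00794). Leaving out each liver in turn gave 1.79 to 2.17, and the adjusted P passed in 10 of 10 fits. As for *Cbr3*, control 1 was the highest and control 5 the lowest control liver, but MI-883 3, highest for *Cbr3*, was the lowest treated liver for *Ptges*. The upstream window of *Ptges*, chr2:30903298-30903547 on the minus strand of GRCm38.p6 (RefSeq), is shown because this gene passed the test, with the match to GCGTG in capitals.

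Ptges: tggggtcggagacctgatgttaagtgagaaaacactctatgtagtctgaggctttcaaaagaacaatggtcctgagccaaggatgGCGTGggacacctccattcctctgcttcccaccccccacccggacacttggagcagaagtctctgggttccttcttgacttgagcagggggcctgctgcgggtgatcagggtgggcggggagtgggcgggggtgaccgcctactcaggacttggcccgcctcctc

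It held 1 dioxin core, at position -165 from the start, and neither of the other motifs. Of the 8 terminal synthases, all tested, *Ptges* alone passed. The other genes named as prostaglandin E synthases, *Ptges2* and *Ptges3*, lay on the side of lower levels. *Ptges2* measured 22.3 ± 2.10 and 18.5 ± 1.99 CPM (log2 difference -0.26, edgeR adjusted P = 0.183), and *Ptges3* 34.2 ± 2.79 and 31.8 ± 2.29 CPM (-0.10, adjusted P = 0.534). The haematopoietic prostaglandin D synthase *Hpgds* measured 2.37 ± 1.10 and 3.55 ± 1.90 CPM (0.57, adjusted P = 0.489).

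*Alox5ap* (Entrez 11690, chr5:149265004-149288153, plus strand) encodes the protein that presents arachidonic acid to 5-lipoxygenase. It measured 0.782, 0.906, 1.10, 1.13 and 0.614 CPM in control livers 1 to 5 and 1.44, 1.06, 1.22, 1.70 and 0.567 CPM in treated livers 1 to 5, from 14 to 42 counts. Of the treated livers, 3 were above all control livers and MI-883 5 was below them. The log2 difference was 0.39 (SE 0.288, 95% interval -0.23 to 1.01, edgeR adjusted P = 0.543; exact permutation P = 0.31), from 0.907 ± 0.218 to 1.20 ± 0.425 CPM.

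*Ltc4s* (Entrez 17001, chr11:50236461-50238532, minus strand), the leukotriene C4 synthase, was the least abundant of the 10. It measured 0.475, 0.312, 0.736, 0.869 and 0.132 CPM in control livers 1 to 5 and 0.308, 0.310, 0.148, 0.696 and 0.248 CPM in treated livers 1 to 5. With 3 to 30 counts per liver, control 5 was at the floor and no difference was detectable at this depth. The log2 difference was -0.60 (SE 0.490, 95% interval -1.66 to 0.46, edgeR adjusted P = 0.586; exact permutation P = 0.429), from 0.505 ± 0.301 to 0.342 ± 0.209 CPM. The log2 ratio of *Alox5ap* to *Ltc4s* differed by 0.79 (exact permutation P = 0.127, adjusted 0.188).

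*Alox5* itself, with 1 to 4 counts per liver, was not tested. Of the 13 listed lipoxygenase and leukotriene genes, *Alox5* among them, 9 were tested and none passed, with a median log2 fold change of 0.21. The most abundant were *Mgst1*, a microsomal glutathione transferase, at 4920 ± 629 and 5140 ± 523 CPM (0.06, edgeR adjusted P = 0.818), and *Cyp4f14*, which oxidises leukotriene B4, at 184 ± 37.9 and 142 ± 27.4 CPM (-0.37, adjusted P = 0.273). Since *Ptgs1*, *Ptgds*, *Alox5ap* and *Ltc4s* are known from blood and non-parenchymal cells, the summed markers of such cells are given beside them. Kupffer cell and macrophage markers (10 of 10 tested) summed to 285 to 422 CPM in control and 242 to 523 CPM in treated livers. Of the treated livers, MI-883 1 was highest, as for *Ptgs1* and *Ptgds*, and MI-883 5 lowest, as for *Alox5ap*. The other ends did not match, with MI-883 2 lowest for *Ptgs1* and *Ptgds* and MI-883 4 highest for *Alox5ap*. Among treated livers *Ltc4s* matched at neither end, with MI-883 4 highest and MI-883 3 lowest. Of the control livers, control 5 was lowest for this sum and for each of the 4 genes. It was also lowest for the platelet, neutrophil and monocyte, lymphocyte and stellate cell sums. Control 1 was highest for the Kupffer cell sum and for *Ptgds*, whereas control 4 was highest for *Ptgs1*, *Alox5ap* and *Ltc4s*. MI-883 1 was also the highest treated liver for the platelet, stellate cell and endothelial sums. Platelet markers (3 of 5 tested) summed to 4.78 to 7.06 and 5.60 to 8.82 CPM, neutrophil and monocyte markers (5 of 8, *Ly6g* at the floor) to 4.91 to 12.8 and 7.34 to 15.9 CPM, and lymphocyte markers (8 of 8) to 3.60 to 7.27 and 3.72 to 4.44 CPM. Mast cell markers (1 of 6 tested, *Cpa3* at the floor) summed to 2.15 to 4.40 and 4.12 to 4.86 CPM, stellate cell and fibroblast markers (7 of 7) to 235 to 381 and 274 to 457 CPM, and endothelial markers (7 of 7) to 123 to 167 and 140 to 183 CPM. No marker gene of any of these lists passed the edgeR test, and the part of these cells in the values of the 4 genes was not tested.

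**Figure D3:**
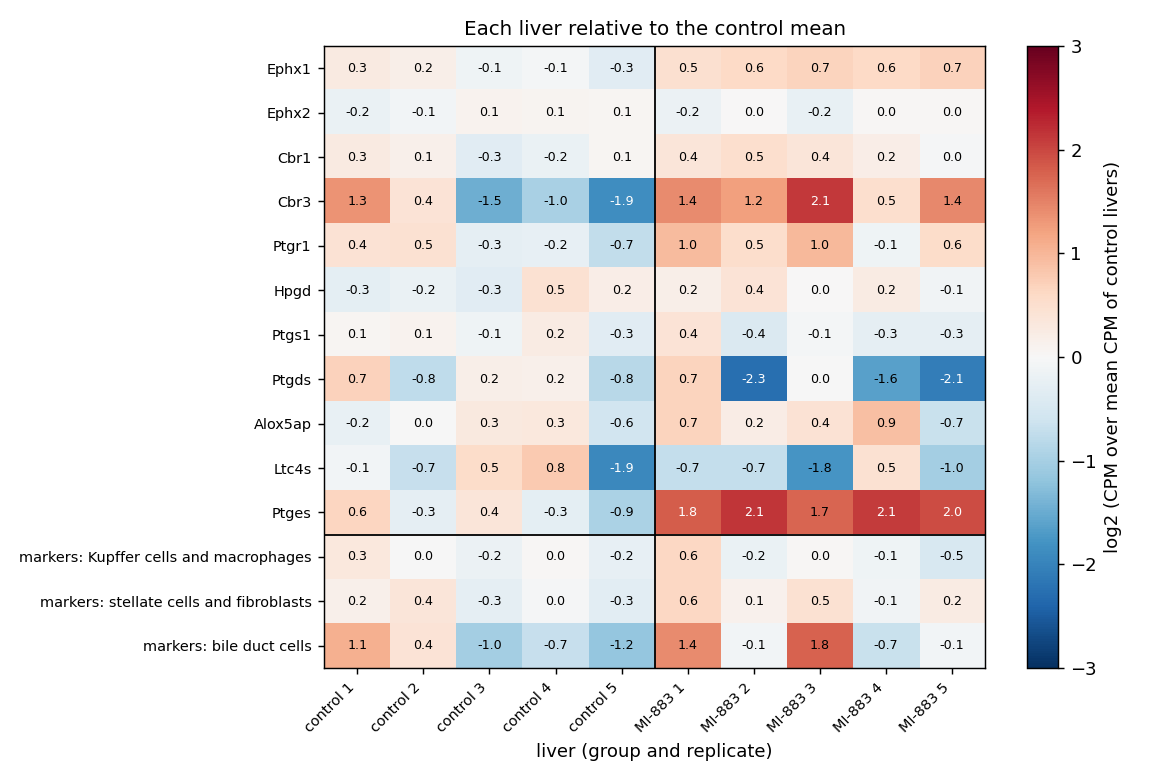
Log2 of the CPM in each liver over the mean CPM of the 5 control livers, for the 10 enzymes, *Ptges* and the summed markers of 3 cell groups (rows), with the 10 livers as columns and the control and MI-883-treated livers parted by a line. *Ephx1*, *Ptges* and *Cbr3* are above the control mean in all 5 treated livers, and *Cbr3* ranges from -1.9 in control 5 to 2.1 in MI-883 3.

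Of all 52 pathway genes listed beside the 10 enzymes, 51 were in the table and 36 had enough counts to be tested. *Ptges* rose and none fell, 19 had a positive and 17 a negative log2 fold change, and the median was 0.03. Groups that did not overlap were found for 3 of the 36, beside 3.98% of all tested genes. The 3 were *Ptges*, *Pla2g6* and *Ggt1*, the last named after its values were seen. *Pla2g6*, a calcium-independent phospholipase A2, measured 128, 117, 128, 107 and 110 CPM in control livers 1 to 5. It measured 129, 140, 138, 160 and 159 CPM in treated livers 1 to 5, with a narrow gap between the groups. Its log2 difference was 0.30 (SE 0.0814, 95% interval 0.12 to 0.47, edgeR adjusted P = 0.113), whereas DESeq2 gave an adjusted P of 0.0208. *Ggt1*, a gamma-glutamyl transferase that trims leukotriene C4, was covered by 0 to 3 counts per control liver and by 5 to 24 counts per treated liver (edgeR adjusted P = 0.0639, DESeq2 adjusted P = 0.00506), too few for a fold change.

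Of the 7 genes for arachidonate release and cyclooxygenase, 3 were tested. Beside *Pla2g6*, the most abundant was *Pla2g4b*, at 1.62 ± 0.171 and 1.50 ± 0.182 CPM (log2 difference -0.11, edgeR adjusted P = 0.774). Of the 13 prostanoid and leukotriene receptors, 8 were tested and none passed. The most abundant were the prostaglandin E receptor *Ptger1*, at 6.18 ± 1.53 and 6.76 ± 0.521 CPM (0.13, adjusted P = 0.733), and the leukotriene B4 receptor *Ltb4r2*, at 1.44 ± 0.460 and 1.28 ± 0.238 CPM (-0.17, adjusted P = 0.776).

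**Figure D4:**
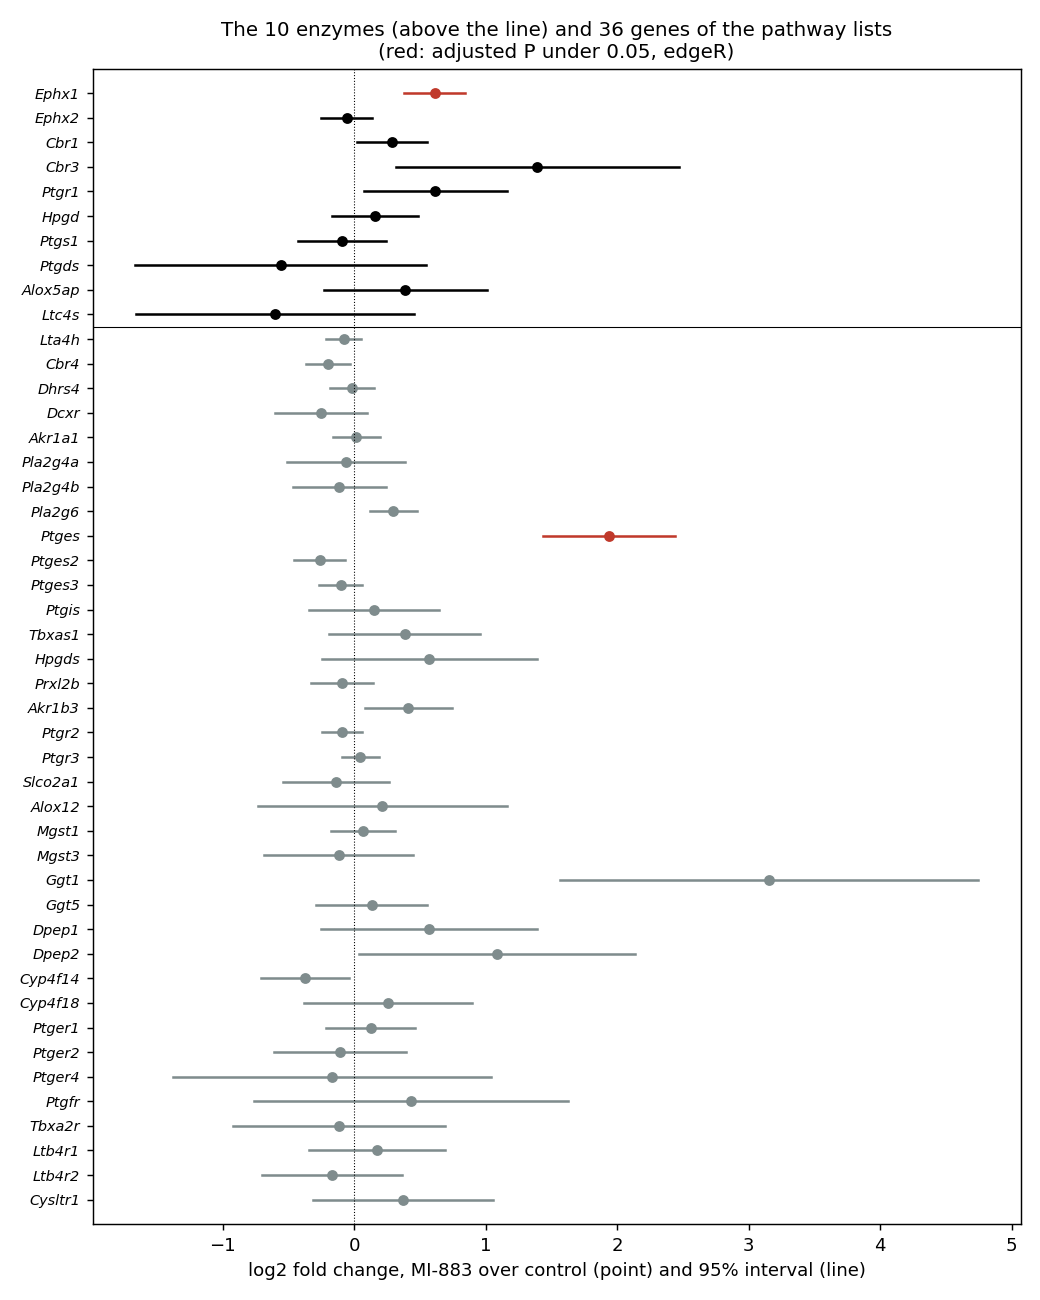
Log2 fold change of MI-883 over control (points) with its 95% interval (lines) for the 10 enzymes, above the horizontal line, and the 36 tested pathway genes below it; red marks an edgeR adjusted P under 0.05. *Ephx1* at 0.61 and *Ptges* at 1.94 are the red points, and the value of *Ggt1* rests on 0 to 3 counts per control liver.

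Exons of neighbouring genes overlap 4 of the 10 enzymes. *Ephx1* shares 72 exon bases on the same strand with the pseudogene Gm36961, but none of its 100-base stretches occur in another gene. *Ptgs1*, *Alox5ap* and *Ltc4s* overlap genes of the opposite strand by 148, 189 and 268 bases, and 1.34%, 0.61% and 6.86% of their 100-base stretches are shared with these. Since the strand setting of the counting was not given in the sources used here, reads of such partners cannot be told apart, which matters most for the low counts of *Ltc4s*. *Ephx2*, *Hpgd*, *Ptgr1*, *Cbr1*, *Cbr3* and *Ptgds* share no such stretch.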

How the data were processed

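Liver RNA of 5 control and 5 MI-883-treated mice (n = 5 animals per group) was sequenced as paired-end, directional libraries on a NovaSeq6000. Per the labels and the methods of the study, the authors trimmed reads with fastp 0.23.0, aligned them to mm10 with STAR and deposited raw counts per Entrez gene from featureCounts. The gene annotation, the strand setting and the other versions are not given in the sources used here. Symbols of 16644 of the 16647 genes, positions and upstream windows were taken from RefSeq (GRCm38.p6), and exon lengths and overlaps from GENCODE.

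Of these, 13219 genes reached 60 counts over the 10 livers and were tested. The test was the quasi-likelihood test of edgeR 4.0.16 under R 4.3.3, with TMM scaling, no covariate, Benjamini-Hochberg adjustment and a threshold of 0.05. Single levels and within-liver ratios (prior count 0.5) were compared by exact two-sided permutation tests. Alternatives were DESeq2 1.42.0, other scalings and filters, the replicate number as a block and leaving out each liver. After seeing the data, DESeq2 with 60 counts in every liver, a fit without the 4 livers of highest bile duct marker sum and that sum as a covariate were added. The scripts were tested on simulated counts.

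The enzymes and lists were chosen with earlier results of these data known. Named are the 10 enzymes, of each pathway list the genes that passed or else the 2 most abundant, and the 3 genes nearest in pattern to an enzyme that passed. Other list members with low counts, *Ggt1*, *Ptges2*, *Ptges3* and *Hpgds* were named after their values were seen. Protein sequences were not analysed here. Counting floors and depth cover counting error only.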

Additional observations from a re-analysis of the deposited data

How the results depend on the processing

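The direction of each of the 10 enzymes and of *Ptges* was kept under all alternatives that could be run, except that the log2 difference of *Ephx2* became 0.033 (adjusted P = 0.860) with the bile duct marker sum as a covariate. *Ephx1* passed under DESeq2 (adjusted P = 2.9e-06) and under the other scalings and filters. Over all genes, 463 passed under DESeq2, of which 291 were higher and 172 lower, 449 under DESeq2 with 60 counts in every liver, 232 with the covariate, and 62 (without MI-883 5) to 208 (without control 1) when a liver was left out, beside 136. The number of enzymes that passed was 2 (*Ephx1* and *Cbr3*) without the 4 livers of highest bile duct marker sum, and 0 to 2 when a liver was left out. Those 4 livers, chosen after the data were seen, include the control livers highest for *Cbr3*. The number of pathway genes was 3 under DESeq2 (*Ptges*, *Pla2g6* and *Ggt1*). With 60 counts in every liver, *Ptges* was not tested, and the number was 0 in edgeR and 1 (*Pla2g6*) in DESeq2. When a liver was left out it was 1 to 2, with *Akr1b3* added without MI-883 5. Left-out livers moved the log2 ratio differences between 0.59 and 0.80 for *Ephx1* to *Ephx2*, 1.19 and 1.93 for *Cbr3* to *Cbr1*, 0.24 and 0.66 for *Ptgr1* to *Hpgd*, 0.53 and 1.05 for *Alox5ap* to *Ltc4s*, and 0.59 and 1.10 for *Ptgs1* to *Ptgds*. The replicate numbers did not pair the livers, since livers of the same number had correlations of their deviations of 0.41, -0.09, -0.10, 0.07 and 0.10, and 0 of 5 control livers correlated best with its own number. With the replicate number as a block, 89 genes, 0 enzymes and 1 pathway gene passed, *Ephx1* had a log2 fold change of 0.62 (adjusted P = 0.0545), and the *Ephx1* to *Ephx2* difference of 0.68 had P = 0.0625, the smallest an exact sign-flip test over 5 pairs can give (0.156 after adjustment). The filter of 60 counts in every liver left out *Ptgr1*, *Cbr3*, *Ptgds*, *Alox5ap* and *Ltc4s*, and filterByExpr left out *Ltc4s*. The cause of these moves was not tested apart from the dropped genes. *Ptgds*, *Alox5ap* and *Ltc4s* had at most 86 counts per liver and 95% intervals that each span more than 1 on the log2 scale, as did that of *Cbr3* with up to 356 counts, and the parts of depth and of spread between livers were not tested.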
